A study of Homo sapiens with 16 samples.

Results

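The genes described here encode the nuclear end of the Hippo pathway: the coactivators TAZ (gene WWTR1) and YAP (YAP1), the DNA-binding factors TEAD1, TEAD2, TEAD3 and TEAD4, and the TEAD cofactors VGLL1, VGLL3 and VGLL4. Every probe set that the array annotation pairs with exactly 1 of these 9 genes was taken, which gave 23 of the 54675 probe sets on the array. The RNA came from SW480, an established line of human colorectal cancer cells that make a truncated APC protein and keep beta-catenin active with no Wnt signal. The series addresses the role of TAZ in Wnt signalling.

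There were 4 groups of 4 arrays, with replicates lettered A to D in each. The siTAZ cells carried an empty vector and received an siRNA against TAZ. The sibcat cells carried the same empty vector and received an siRNA against beta-catenin (gene CTNNB1). The APC cells had a stable vector for wild-type APC and were given control siRNA. The siGFP cells, the control, carried the empty vector and received the control siRNA. No group was left without a vector or without an siRNA. Each target had 1 siRNA condition, and the labels do not say whether the APC cells were 1 clone or a pool. The replicates are labelled biological, but no label names separate cultures, so a p-value here reflects only how these arrays scatter, in part perhaps for technical reasons. The comparisons of siTAZ, sibcat and APC cells with control all share the same 4 siGFP arrays.

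TAZ and YAP do not bind DNA themselves. They enter the nucleus when the LATS kinases of the Hippo pathway leave them unphosphorylated, and there they bind TEAD factors and raise the transcription of TEAD target genes. VGLL proteins contact TEADs through a short Tondu motif, and VGLL4 competes with YAP and TAZ for TEAD binding. In the intestine TAZ and YAP are known for roles in regeneration and in tumours, and TAZ protein can be held in the beta-catenin destruction complex, to which APC belongs. Arrays measure RNA, so neither the protein levels nor the location of these factors was measured.

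Promoter windows of 7 of the 9 genes were found in the RefSeq table (build GRCh38.p14), as 13 windows that each run from 250 bases before to 50 after a gene start. Those of WWTR1 and YAP1 are shown because these are the cofactors whose RNA differed most from control. Capitals mark matches to TCF/LEF-type letters (CTTTG followed by AA, AT, TA or TT) or to the TEAD letters CATTCC, searched on both strands, and no match to one overlapped a match to the other in these windows.
WWTR1, chr3:149657976-149658275, minus strand: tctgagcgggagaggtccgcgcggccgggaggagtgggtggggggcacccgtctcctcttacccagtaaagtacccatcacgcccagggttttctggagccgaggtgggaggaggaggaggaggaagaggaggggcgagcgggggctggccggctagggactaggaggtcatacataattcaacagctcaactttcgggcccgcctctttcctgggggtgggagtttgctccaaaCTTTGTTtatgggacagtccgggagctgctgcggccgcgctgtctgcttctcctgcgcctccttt
WWTR1, chr3:149703224-149703523, minus strand: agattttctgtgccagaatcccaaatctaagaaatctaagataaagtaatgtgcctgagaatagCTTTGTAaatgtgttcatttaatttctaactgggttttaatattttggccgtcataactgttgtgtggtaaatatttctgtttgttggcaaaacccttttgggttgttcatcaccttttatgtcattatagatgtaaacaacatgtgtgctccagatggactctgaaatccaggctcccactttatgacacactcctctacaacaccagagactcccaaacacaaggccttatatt
YAP1, chr11:102110197-102110496, plus strand: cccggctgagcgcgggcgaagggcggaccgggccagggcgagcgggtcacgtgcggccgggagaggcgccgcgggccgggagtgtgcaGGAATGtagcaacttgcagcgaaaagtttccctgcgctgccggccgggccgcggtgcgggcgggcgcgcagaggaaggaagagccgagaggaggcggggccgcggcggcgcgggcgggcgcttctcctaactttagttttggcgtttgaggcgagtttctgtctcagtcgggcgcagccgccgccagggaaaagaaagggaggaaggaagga
The first WWTR1 window held CTTTGTT at position -15 relative to the gene start, and the second held CTTTGTA at position -186. The YAP1 window held GGAATG, the reverse complement of CATTCC, at position -162. Over the windows of these 7 genes, 5 of 13 held TCF/LEF-type letters (both windows of WWTR1, both of TEAD2 and 1 of 5 of VGLL4). The share was 13.8% of all 35116 windows of the same length, and 16.4% of all 27305 genes had such a window. Some windows belong to the same gene, so the 13 are not independent. TEAD letters lay in 2 of the 13 (YAP1 and VGLL1), against 14% of all windows. A match describes these letters only, and no binding was measured.

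Levels are log2 values from RMA, which corrects background, puts the arrays on 1 distribution and summarises each probe set, and a log2 difference of 1 is a doubling of the signal. Array medians lay between 5.06 and 5.12, and arrays of 1 group correlated at 0.9934 to 0.9979. From a limma fit over all 54675 probe sets, those with an adjusted p (Benjamini-Hochberg) under 0.05 are said to pass. In bulk samples, fewer cells of a type and less RNA per cell cannot be told apart. Of 10 markers of intestinal epithelium, 8 reached the median of all values, 5.09, in some group (KRT20 and LGR5 did not), as did 2 of 6 fibroblast, 1 of 3 endothelial and 1 of 3 measured leukocyte markers. CTNNB1 (201533_at) read 9.94 to 10.43 in sibcat cells, against 12.97 to 13.27 in siGFP cells. Its 1554411_at fell there too (log2 difference -3.22, adjusted p = 2.69e-08), while 223679_at kept 75.7% of control (-0.40, adjusted p = 0.000839). In APC cells CTNNB1 differed by -0.38 on 201533_at (adjusted p = 0.0184), -0.58 on 223679_at (adjusted p = 2.27e-05) and -0.51 on 1554411_at (adjusted p = 0.166). APC rose in APC cells on 2 of its 5 probe sets, 216933_x_at (log2 difference 1.11, adjusted p = 2.7e-05), which averaged 5.07 there, below the median of all values, and 203526_s_at (0.41, adjusted p = 0.00183), while on 203525_s_at, the brightest for APC, the difference was 0.08 (adjusted p = 0.743). On 203527_s_at and 215310_at it was 0.00 (adjusted p = 1) and 0.14 (adjusted p = 0.225).

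Across the 9 genes, the largest differences from control were those of WWTR1 in siTAZ cells and YAP1 in sibcat cells. Other comparisons did not all share that order. In siTAZ cells VGLL4 differed by 0.55 and 0.52 and YAP1 by at most 0.24 in size. In sibcat cells TEAD4 differed by -0.60 on 41037_at and WWTR1 by 0.52 on 202132_at. In siTAZ cells 8 of the 23 probe sets passed the test, 3 higher and 5 lower. Over all probe sets the share was 20.3% (10.5% higher and 9.77% lower). The 5 lower include all 3 probe sets of WWTR1, the target of that siRNA, so part of this count reflects the treatment itself. The same 3 are in the count of 7 given below. In sibcat cells 10 passed, 5 higher and 5 lower, against 25.6% of all (13.4% and 12.2%). In APC cells 10 passed, 5 higher and 5 lower, against 24.0% of all (12.7% and 11.3%). The median log2 difference of the 23 was -0.08 in siTAZ cells, -0.03 in sibcat cells and 0.06 in APC cells, and that of all probe sets lay between 0.00 and 0.02. Of the 23, 17 reached the median level of 5.09 in at least 1 group. Among the 17, 7, 9 and 9 passed in siTAZ, sibcat and APC cells, against 34.8%, 43.0% and 38.7% of all probe sets that reach that level. Several probe sets read the same gene, so the 23 are not independent.

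**Figure D1:**
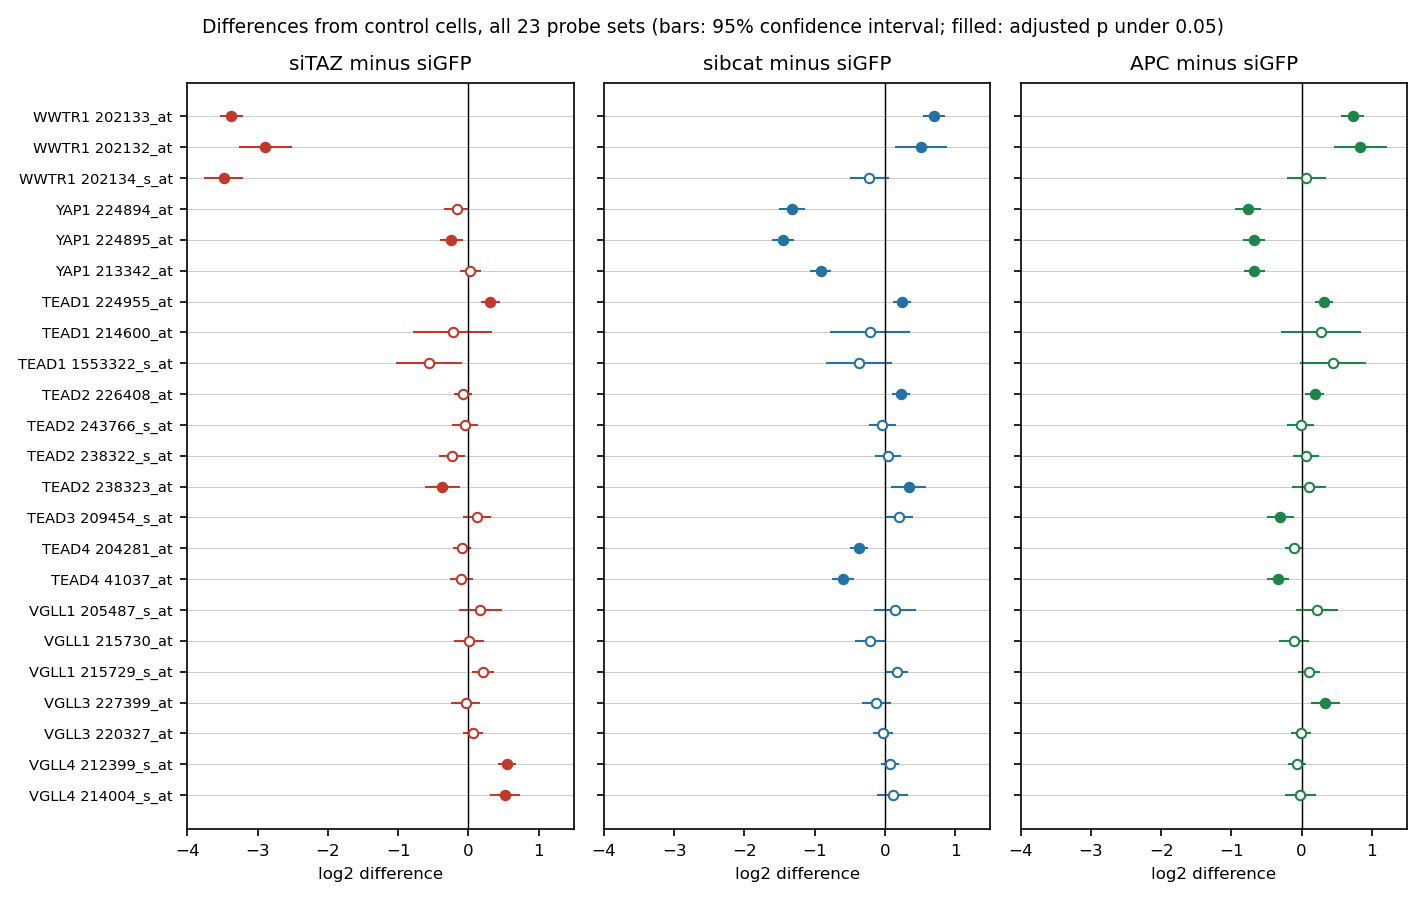
Log2 difference from siGFP (x axis) of each of the 23 probe sets (rows) in siTAZ, sibcat and APC cells; bars are 95% confidence intervals of the limma fit and filled symbols passed at an adjusted p under 0.05. WWTR1 lies far to the left in siTAZ cells, YAP1 to the left in sibcat and APC cells, and VGLL4 to the right in siTAZ cells.

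WWTR1 RNA fell 10.4-fold with its own siRNA and was 1.62-fold higher with the siRNA against beta-catenin and 1.65-fold higher with wild-type APC on its brightest probe set. The probe set 202133_at read 6.79, 7.0, 6.77 and 7.06 in siTAZ cells, against 10.26, 10.13, 10.33 and 10.39 in siGFP cells. The groups were far apart, and siTAZ cells kept 9.66% of the control signal (log2 difference -3.37, SE 0.08, adjusted p = 1.75e-14). The other 2 probe sets fell as well, to 13.5% of control on 202132_at (adjusted p = 3.13e-09) and 8.96% on 202134_s_at (adjusted p = 1.02e-11), where siTAZ cells read 3.95 to 4.80, below the median of all values. On 202133_at sibcat cells read 10.97, 10.93, 11.05 and 10.95, and APC cells 10.90, 11.01, 11.06 and 11.04. All 8 of these arrays lay above all siGFP arrays. The log2 difference from control was 0.70 in sibcat cells (SE 0.08, adjusted p = 1.83e-06) and 0.73 in APC cells (SE 0.08, adjusted p = 1.19e-06). APC and sibcat cells differed by 0.03 (95% interval -0.13 to 0.19, adjusted p = 0.842), so the order was siTAZ, then siGFP, then sibcat and APC cells, with the last 2 groups within their spread of each other.

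The 3 WWTR1 probe sets did not all show that rise. On 202132_at the values were 9.57, 9.53, 9.18 and 9.25 in sibcat cells and 9.85, 9.81, 9.63 and 9.53 in APC cells, against 9.0, 9.09, 8.63 and 8.75 in siGFP cells. Both groups lay above control, by 0.84 in APC cells (SE 0.18, adjusted p = 0.00158) and by 0.52 in sibcat cells (SE 0.18, adjusted p = 0.0394). The call in sibcat cells ended without sibcat A (0.45), sibcat B (0.47), siGFP C (0.44) or siGFP D (0.48), with the RNA quality covariate described below (0.37, adjusted p = 0.0997) and with a trended prior (adjusted p = 0.0653). With the replicate letter as a block it held (adjusted p = 0.00213), and APC cells then also exceeded sibcat cells, by 0.32 (adjusted p = 0.0321, against 0.195 without the block). On 202134_s_at sibcat cells read 7.58 to 7.84 and APC cells 7.89 to 8.10, against 7.86 to 8.06 in siGFP cells. This probe set differed from control by -0.22 in sibcat cells (95% interval -0.50 to 0.06, adjusted p = 0.269) and 0.07 in APC cells (-0.21 to 0.35, adjusted p = 0.786). Which part of the WWTR1 transcript each probe set reads is not used here.

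YAP1, the paralogue of TAZ, moved the other way in sibcat and APC cells. The brightest probe set, 224894_at, read 9.84, 10.11, 10.11 and 10.07 in sibcat cells and 10.49, 10.55, 10.65 and 10.69 in APC cells, against 11.39, 11.14, 11.45 and 11.45 in siGFP cells. The 3 groups did not overlap. Signal fell to 39.9% of control in sibcat cells (log2 difference -1.33, SE 0.09, adjusted p = 3.03e-09) and to 58.9% in APC cells (-0.76, SE 0.09, adjusted p = 2.61e-06). The other probe sets fell too, by 1.46 and 0.92 on the log2 scale in sibcat cells and by 0.68 and 0.67 in APC cells (224895_at and 213342_at). YAP1 was higher in APC than in sibcat cells on all 3 probe sets, by 0.56 (adjusted p = 4.98e-05), 0.77 (adjusted p = 2.83e-07) and 0.24 (213342_at, adjusted p = 0.0131), the last call ending without sibcat B (0.20) or APC C (0.20).

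With the siRNA against TAZ, YAP1 differed from control by at most 0.24 on the log2 scale, and 1 of its 3 probe sets passed. On 224894_at siTAZ cells read 11.35, 11.14, 11.12 and 11.15, and the log2 difference was -0.17 (95% interval -0.35 to 0.01, adjusted p = 0.215). That difference passed without siGFP B, the lowest control array (-0.24, adjusted p = 0.0466). On 224895_at siTAZ cells read 10.46, 10.22, 10.23 and 10.22, against 10.43, 10.45, 10.54 and 10.67 in siGFP cells, and the difference of -0.24 passed (SE 0.08, adjusted p = 0.0306). It did not pass without siTAZ B, C or D (-0.22 each), without siGFP C (-0.23) or siGFP D (-0.19), with the RNA quality covariate (-0.22), or when only these 2 groups were fitted (adjusted p = 0.0774). Within replicates A and B alone the differences on 224894_at and 224895_at were -0.02 (adjusted p = 0.957) and -0.10 (adjusted p = 0.657), and within C and D alone -0.32 (adjusted p = 0.0163) and -0.38 (adjusted p = 0.0128). On 213342_at the difference was 0.03 (-0.12 to 0.18, adjusted p = 0.854). Between the siRNAs, YAP1 was higher in siTAZ than in sibcat cells by 1.16, 1.22 and 0.95 on the 3 probe sets (adjusted p at most 1.45e-08).

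**Figure D2:**
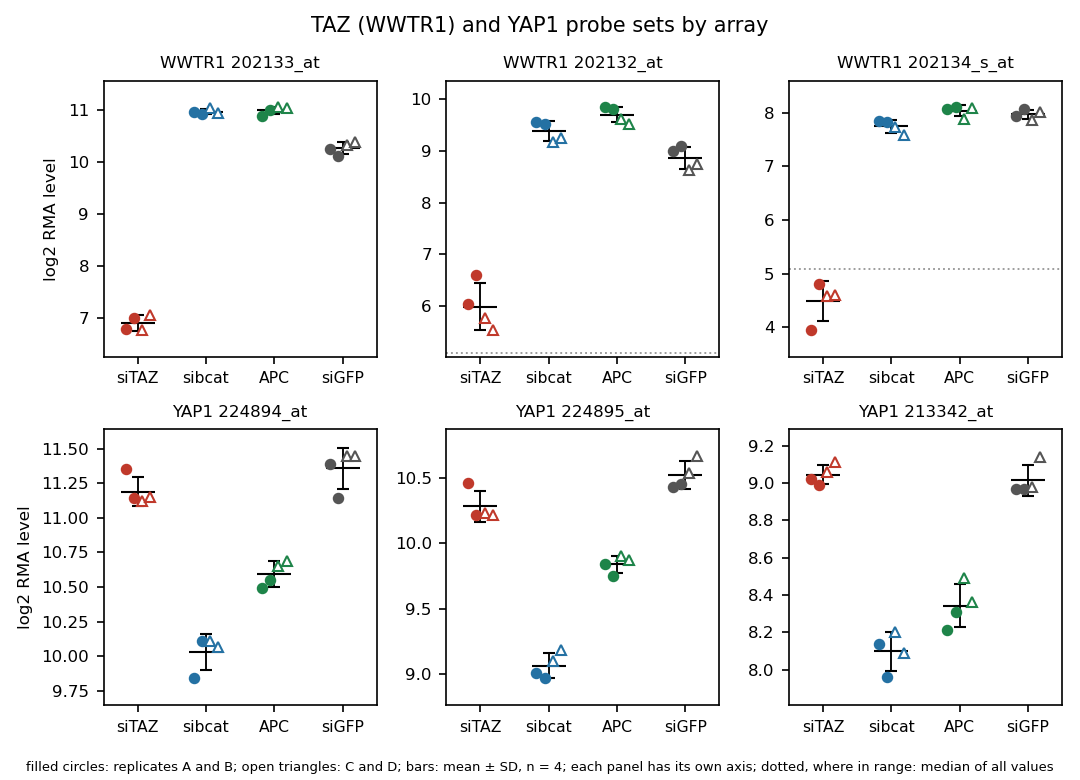
Log2 RMA level (y axis) of the 3 WWTR1 and 3 YAP1 probe sets on each array, by group; bars are the mean ± SD over 4 arrays. WWTR1 is low in siTAZ cells on every probe set, and YAP1 is lowest in sibcat cells with APC cells between sibcat and siGFP cells.

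By the root mean square difference over the 16 arrays, each gene taken relative to its siGFP mean, the genes most like WWTR1 (202133_at) were HMGA2 (0.56), an architectural chromatin protein, MPC2 (0.57), which helps carry pyruvate into mitochondria, and TMEM65 (0.68), a membrane protein. The search covered the 13036 genes that reached the median level in a group. All 3 fell in siTAZ cells, with log2 differences of -2.92, -2.64 and -2.19. Elsewhere they followed WWTR1, which was higher by 0.70 in sibcat and 0.73 in APC cells, less closely. HMGA2 was 1.44 higher in sibcat cells (adjusted p = 3.3e-12) and differed by 0.04 in APC cells (adjusted p = 0.699). MPC2 was 0.19 higher in sibcat cells (adjusted p = 0.0203) and differed by 0.04 in APC cells (adjusted p = 0.704). TMEM65 differed by 0.35 in sibcat cells (adjusted p = 0.144) and 0.42 in APC cells (adjusted p = 0.0808). The genes most like YAP1 (224894_at) were RASSF8 (0.13), a Ras-association domain protein, FGF19 (0.14), a secreted growth factor, and EIF5A2 (0.15), a translation factor. The measure is not scaled to the size of a gene's change, so its values for WWTR1 and YAP1 cannot be compared. FGF19 differed from control by -0.17 in siTAZ cells, -1.45 in sibcat cells and -0.73 in APC cells. RASSF8 gave -0.34, -1.43 and -0.69, and EIF5A2 gave -0.36, -1.42 and -0.83, in the same order. These genes were picked for likeness, so their values are descriptions.

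Among the DNA-binding partners, TEAD1 was up to 1.25-fold above control on its brightest probe set. TEAD4 in sibcat cells was lower by 1.29-fold on its brightest, 204281_at, and by 1.51-fold on 41037_at. TEAD1 on its brightest probe set, 224955_at, read 11.93, 11.80, 11.98 and 11.92 in siTAZ cells, 11.84, 11.77, 11.90 and 11.85 in sibcat cells and 11.85, 11.89, 11.94 and 11.98 in APC cells. In siGFP cells it read 11.48, 11.58, 11.68 and 11.63, below every other array. The rise was 0.32 in siTAZ cells (SE 0.06, adjusted p = 0.00104), 0.25 in sibcat cells (SE 0.06, adjusted p = 0.00549) and 0.32 in APC cells (SE 0.06, adjusted p = 0.000684). None of the 3 differences among them passed, and the widest was 0.08 (95% interval -0.05 to 0.20, APC against sibcat). All 3 rises share 1 set of control arrays. Within replicates A and B alone the differences were 0.34, 0.28 and 0.34, and within C and D alone 0.30, 0.22 and 0.31, with adjusted p of 0.0569 to 0.103 in A and B and 0.019 to 0.0642 in C and D.

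The other TEAD1 probe sets did not follow. On 214600_at none of the differences from control passed (-0.23, -0.21 and 0.28 in siTAZ, sibcat and APC cells). Replicates A and B read 7.47 to 8.49, against 7.22 to 7.72 in C and D, and A and B were the higher in all 4 groups. With the replicate block APC cells exceeded sibcat cells by 0.49 (adjusted p = 0.00789, against 0.201 without it), and siTAZ cells lay below APC cells by 0.50 (adjusted p = 0.00628, against 0.183). The difference between siTAZ and APC cells also passed without siTAZ B (-0.73, adjusted p = 0.038). On 1553322_s_at siTAZ cells read 4.53, 5.89, 4.95 and 4.99, sibcat cells 5.14 to 5.53 and APC cells 5.73 to 6.41, against 5.41 to 5.96 in siGFP cells. siTAZ cells differed from control by -0.56 (SE 0.22, adjusted p = 0.0913), which passed without siTAZ B, the highest siTAZ array (-0.83, adjusted p = 0.00213), and with the replicate block (adjusted p = 0.027). APC cells exceeded sibcat cells by 0.82 on this probe set (adjusted p = 0.00819). siTAZ cells differed from APC cells by -1.01 on it (adjusted p = 0.00156), with siTAZ B inside the range of the APC arrays. Neither call held within replicates A and B alone (adjusted p = 0.0949 and 0.0575).

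TEAD4 had 2 probe sets, both of which fell in sibcat cells. On 41037_at it read 7.46, 7.49, 7.38 and 7.37 in sibcat cells and 7.79, 7.61, 7.73 and 7.63 in APC cells, against 8.23, 8.0, 7.99 and 7.87 in siGFP cells. It fell to 66.1% of control in sibcat cells (log2 difference -0.60, SE 0.08, adjusted p = 9.45e-06) and to 79.4% in APC cells (-0.33, SE 0.08, adjusted p = 0.00308). Within replicates A and B alone the APC difference was -0.41 (adjusted p = 0.0542) and within C and D alone -0.25 (adjusted p = 0.0612). On 204281_at the fall was 0.37 in sibcat cells (SE 0.06, adjusted p = 0.000139), and APC cells differed by -0.11 (95% interval -0.23 to 0.02, adjusted p = 0.253). siTAZ cells differed from control by -0.10 and -0.09 on these probe sets, neither of which passed. TEAD4 was higher in APC than in sibcat cells on both, by 0.27 (adjusted p = 0.0114 on 41037_at and 0.00212 on 204281_at), so on 41037_at the order was sibcat, APC and siGFP cells, with no overlap, as for YAP1.

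TEAD2 and TEAD3 shifted by at most 0.37 from control. TEAD2 on its brightest probe set, 226408_at, read 8.33, 8.20, 8.11 and 8.24 in sibcat cells, against 8.03, 7.94, 8.04 and 7.95 in siGFP cells, a rise of 0.23 (SE 0.06, adjusted p = 0.0108). In APC cells it read 8.12 to 8.22, a rise of 0.19 (adjusted p = 0.0412) that no longer passed without any 1 of APC A, B or C or siGFP A, B, C or D (0.17 to 0.20). In siTAZ cells TEAD2 differed by -0.08 (adjusted p = 0.49) and lay below sibcat cells by 0.31 (adjusted p = 0.00108). Its probe set 243766_s_at passed in none of the 6 comparisons. Its 238322_s_at read 5.23 to 5.52 in siTAZ cells, against 5.63 to 5.71 in siGFP cells, a difference of -0.23 (adjusted p = 0.0805, or 0.0483 with the replicate block). The dim 238323_at read 4.11 to 4.32 in siTAZ cells and 4.71 to 5.05 in sibcat cells, against 4.29 to 4.79 in siGFP cells. Its differences of -0.37 and 0.34 passed (adjusted p = 0.0309 and 0.0441), but the siTAZ call ended without any 1 of siTAZ A, B or C or siGFP A, C or D (-0.37 to -0.29), and the sibcat call without sibcat A or B or siGFP A, B or C (0.25 to 0.34). Within replicates A and B alone the sibcat difference on 238323_at was 0.60 (adjusted p = 0.00907), and within C and D alone 0.07 (adjusted p = 0.836).

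TEAD3, read by 209454_s_at, was lower in APC cells at 5.81, 5.98, 6.27 and 6.14, against 6.42, 6.22, 6.40 and 6.38 in siGFP cells. APC C lay above siGFP B, so the groups overlapped. The fall was 0.30 on the log2 scale (SE 0.09, adjusted p = 0.0211), and it did not pass without APC A (-0.23), APC B (-0.28), siGFP A (-0.28) or siGFP C (-0.29). Against sibcat cells, which read 6.51 to 6.61, APC cells were lower by 0.51 (adjusted p = 0.000275). siTAZ cells read 6.34 to 6.63 and differed from control by 0.12 (adjusted p = 0.431).

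**Figure D3:**
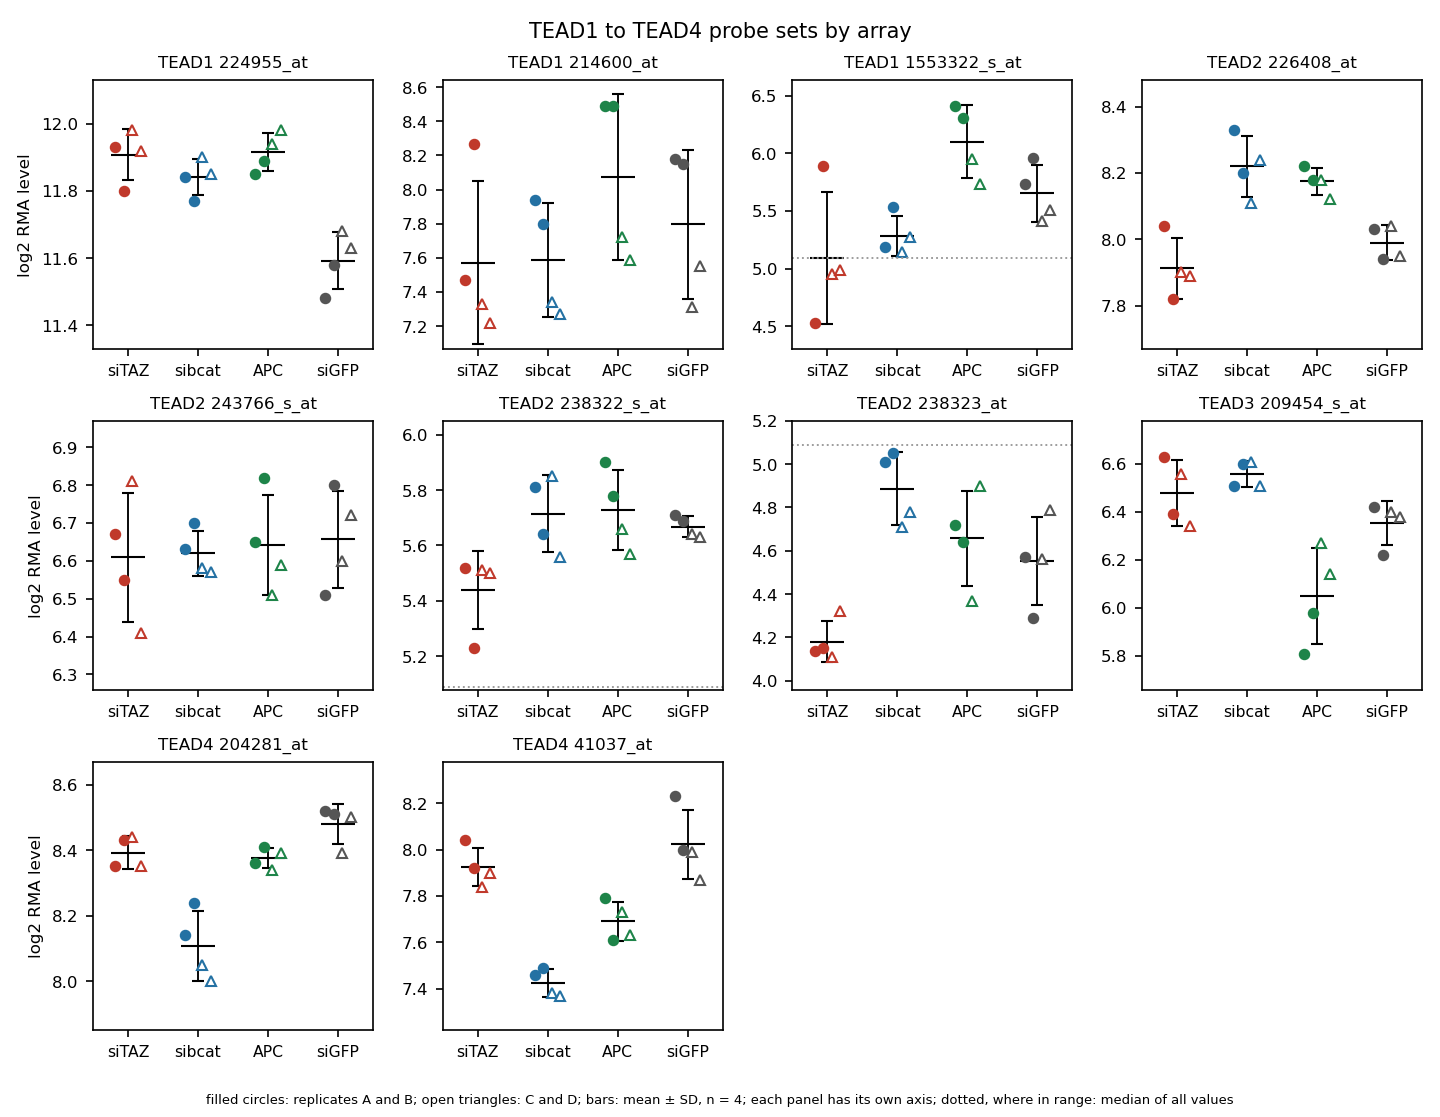
Log2 RMA level (y axis) of the TEAD1, TEAD2, TEAD3 and TEAD4 probe sets on each array, by group; bars are the mean ± SD over 4 arrays. TEAD1 224955_at is lowest in siGFP cells, TEAD4 41037_at is lowest in sibcat cells, and TEAD1 214600_at is higher in replicates A and B than in C and D.

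VGLL4, the competitor of YAP and TAZ on TEADs, rose in siTAZ cells on both of its probe sets. On 212399_s_at it read 9.07, 9.0, 9.04 and 9.05 in siTAZ cells, 8.49 to 8.59 in sibcat cells and 8.31 to 8.57 in APC cells, against 8.49, 8.56, 8.44 and 8.47 in siGFP cells. Every siTAZ array lay above all 12 others. The rise was 1.46-fold over control (log2 difference 0.55, SE 0.06, adjusted p = 3.29e-06). On 214004_s_at siTAZ cells read 8.38, 8.38, 7.98 and 8.13, against 7.88, 7.73, 7.56 and 7.61 in siGFP cells, a 1.44-fold rise (log2 difference 0.52, SE 0.10, adjusted p = 0.00107). This second probe set was higher in replicates A and B in all 4 groups. It rose by 0.57 within A and B and 0.47 within C and D (adjusted p = 0.0087 and 0.00535), and by 0.28 with the RNA quality covariate (adjusted p = 0.0136).

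VGLL4 did not pass in sibcat cells (0.07 and 0.11 on the 2 probe sets, adjusted p = 0.507 and 0.537) or in APC cells (-0.07 and -0.02, adjusted p = 0.478 and 0.935). The 95% intervals on 212399_s_at were -0.06 to 0.20 in sibcat cells and -0.20 to 0.06 in APC cells. Set against each other directly, siTAZ cells exceeded sibcat cells by 0.48 on 212399_s_at (SE 0.06, adjusted p = 7.44e-06) and 0.42 on 214004_s_at (SE 0.10, adjusted p = 0.00487). They exceeded APC cells by 0.62 (SE 0.06, adjusted p = 2.63e-07) and 0.54 (SE 0.10, adjusted p = 0.000414). The rise with the siRNA against TAZ was therefore larger than the differences seen with the siRNA against beta-catenin or with APC.

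VGLL1 and VGLL3 stayed below the median of all values on every array. The 3 VGLL1 probe sets read 2.15 to 4.94, and none passed in any of the 6 comparisons. The lowest, 215729_s_at, differed by 0.21 in siTAZ cells (adjusted p = 0.0609), which passed without siTAZ C (0.25) or siGFP B (0.25). VGLL3 on 227399_at read 3.17, 2.90, 3.26 and 3.16 in APC cells, against 3.01, 2.61, 2.76 and 2.76 in siGFP cells, overlapping at APC B. The difference of 0.34 passed (SE 0.10, adjusted p = 0.0164), but not without APC C (0.29) or siGFP B (0.28). At these levels the signal may be largely background. The second VGLL3 probe set, 220327_at, read 2.36 to 2.68 and passed in none of the comparisons.

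**Figure D4:**
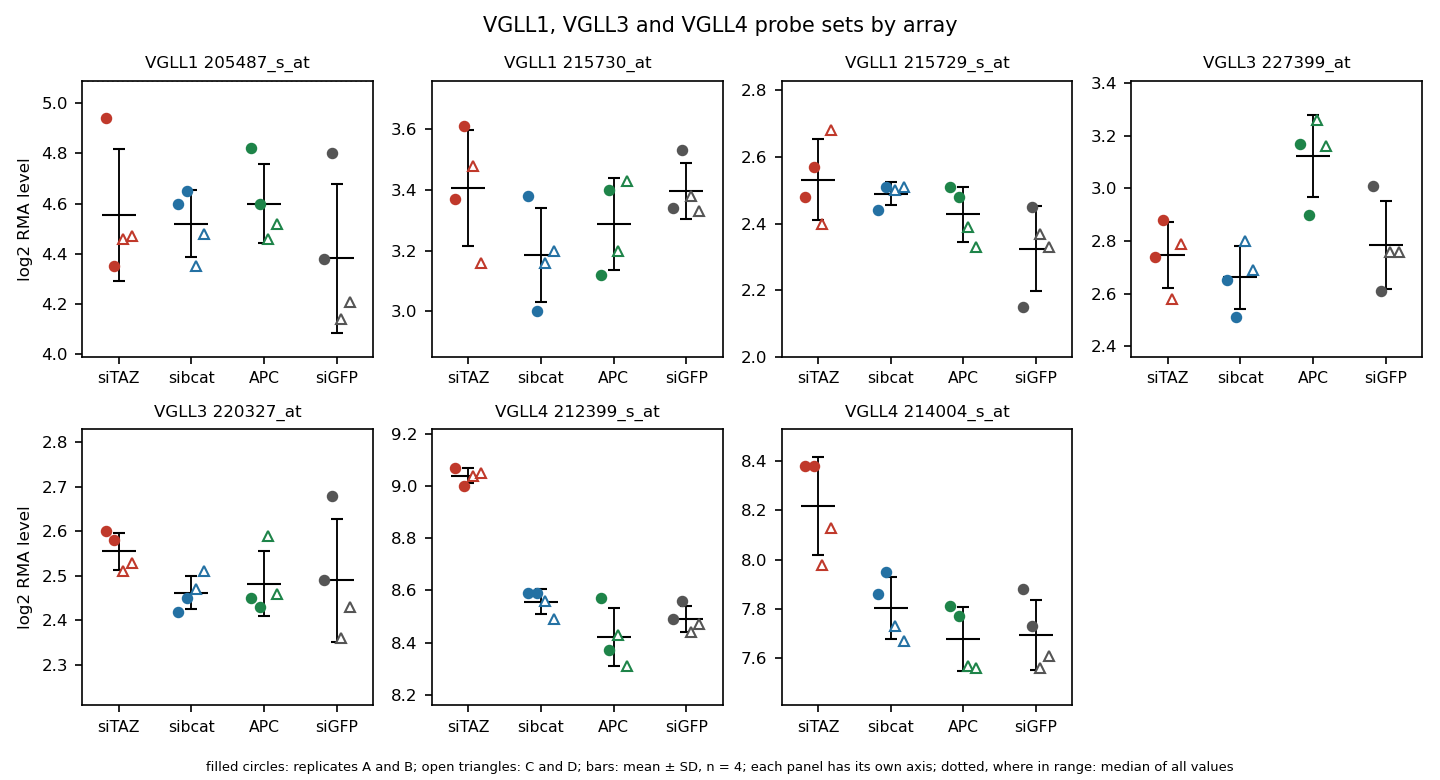
Log2 RMA level (y axis, its own range in each panel) of the VGLL1, VGLL3 and VGLL4 probe sets on each array, by group; bars are the mean ± SD over 4 arrays. VGLL4 is highest in siTAZ cells on both probe sets, and the VGLL1 and VGLL3 probe sets all lie below 5.09.

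Set directly against each other, siTAZ and sibcat cells differed on 13 of the 23 probe sets, 7 higher and 6 lower in siTAZ cells, against 26.7% of all probe sets (12.8% higher and 13.9% lower). Between siTAZ and APC cells 15 passed, 7 higher and 8 lower in siTAZ cells, against 32.4% of all (15.5% and 16.9%). The 3 probe sets of WWTR1, the target of that siRNA, are among the lower in both of these comparisons. Between APC and sibcat cells 8 passed, 7 higher and 1 lower in APC cells, against 31.5% of all (16.0% and 15.6%). The 8 between APC and sibcat cells were the 3 of YAP1 and both of TEAD4, all higher in APC cells, with 1553322_s_at of TEAD1 and 227399_at of VGLL3, also higher, and TEAD3, lower.

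A measure of RNA quality differed with the replicate letters and read higher in siTAZ and sibcat cells than in the siGFP array of the same letter in 4 of 4 letters. The difference between the ACTB control probe sets at the 3' and 5' ends averaged 2.57 ± 0.39 in siTAZ cells, 2.30 ± 0.24 in sibcat cells and 2.08 ± 0.32 in APC cells, against 2.05 ± 0.16 in siGFP cells (SD, n = 4 each). By an exact two-sided permutation test, whose smallest possible p here is 0.0286, these differed from siGFP with p = 0.0571, 0.171 and 0.914. In every group replicates A and B had the larger ACTB difference. Within letters A, B, C and D, siTAZ cells differed from siGFP cells by 0.83, 0.53, 0.29 and 0.40, sibcat cells by 0.19, 0.47, 0.16 and 0.17, and APC cells by 0.05, 0.30, -0.10 and -0.16. An exact paired test, added after these values were seen, gave p = 0.125 for siTAZ and for sibcat cells, the smallest that 4 pairs allow, and p = 0.875 for APC cells. The ACTB difference was also added to the fit as a covariate. WWTR1 202132_at in siTAZ cells then gave -3.19, against -2.89 without it, and TEAD4 41037_at in sibcat cells -0.65, against -0.60. VGLL4 212399_s_at in siTAZ cells gave 0.50, against 0.55. The rise of VGLL4 214004_s_at in siTAZ cells, 0.52 without the covariate, was smaller with it, as given above. With the covariate 6 of the 23 probe sets passed in siTAZ cells and 8 in sibcat cells, against 8 and 10 without it. The share of all probe sets passing with the covariate is not given here. The calls that ended were YAP1 224895_at (adjusted p = 0.131) and TEAD2 238323_at (adjusted p = 0.09) in siTAZ cells, and WWTR1 202132_at (adjusted p = 0.0997) and TEAD2 238323_at (adjusted p = 0.0723) in sibcat cells, with TEAD4 41037_at between siTAZ and APC cells (0.13, adjusted p = 0.251). New calls were TEAD1 214600_at between siTAZ and APC cells (-0.99, adjusted p = 0.006, against -0.50 without the covariate) and, between APC and sibcat cells, TEAD1 214600_at (0.71, adjusted p = 0.0184) and WWTR1 202132_at (0.46, adjusted p = 0.0298). Its part in the WWTR1 202132_at, YAP1 224895_at and VGLL4 214004_s_at differences beyond these values was not tested.

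Among the target genes of these factors, more fell than rose in siTAZ and in APC cells, and CCN2, a secreted matrix-associated protein that is a standard YAP/TAZ target, fell in all 3 groups (adjusted p at most 1.34e-09). CCN2 averaged 4.77 ± 0.08 in siTAZ cells, 5.08 ± 0.15 in sibcat cells and 3.77 ± 0.32 in APC cells, against 7.26 ± 0.19 in siGFP cells (SD, n = 4 each), so that all 3 of these groups lay below the median of all values, where the size of a fall is uncertain. Of 30 listed targets 27 were measured, each by its brightest probe set. This list and the others below were written with earlier results of these data known. Their counts beside the shares of all genes are therefore descriptions, not tests. In siTAZ cells 3 rose and 14 fell (15.2% of all genes rose and 11.8% fell), with CRIM1 at -1.05, CCN1 at -0.97 and NT5E at -0.93. In sibcat cells 10 rose and 9 fell (17.1% and 15.8% of all), with NT5E, an ecto-enzyme that makes adenosine, higher by 1.49, CRIM1 at -1.24 and EDN1, the peptide endothelin-1, at -1.14. In APC cells 5 rose and 17 fell (15.0% and 15.7% of all), with IGFBP3 at -2.59, LTBP2 at -2.42 and ANKRD1 at -2.32. The list's median log2 difference was -0.23, 0.03 and -0.53 in siTAZ, sibcat and APC cells, against 0.02, 0.00 and 0.01 over all 19775 genes.

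The Hippo kinases and regulators, which act on YAP and TAZ from the cytoplasm, included members that rose and members that fell in each group. Of 29 listed genes 28 were measured. In siTAZ cells 6 rose and 6 fell (15.2% and 11.8% of all genes), with STK4, the kinase MST1, higher by 0.91 and MOB1A, the LATS-activating adaptor, at -0.93. FRMD6 was higher by 0.67 and AMOT by 0.58, with AMOT below the median of all values in both groups. In sibcat cells 8 rose and 4 fell (17.1% and 15.8% of all genes), with the kinase MAP4K4 higher by 1.27 and the phosphatase PTPN14 by 0.62, while STRN, a PP2A scaffold, fell by 0.85 and AMOTL2 by 0.72. In APC cells 2 rose and 11 fell (15.0% and 15.7% of all genes), and the 4 that moved most were AJUBA (-2.24), AMOTL2 (-1.86), LATS2 (-1.27) and RASSF1 (-1.04). LATS2, AJUBA, AMOTL2, PTPN14 and WTIP stand in both this list and the target list, so the 2 lists are not separate evidence.

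Other nuclear partners of TEAD, YAP or TAZ numbered 20, of which 17 were measured. In siTAZ cells 6 rose and 1 fell (15.2% and 11.8% of all genes), with FOSL1, an AP-1 subunit, higher by 0.65, RBPMS, an RNA-binding coactivator, by 0.65, RUNX3 by 0.51 and RUNX2 by 0.40. In sibcat cells 4 rose and 3 fell (17.1% and 15.8% of all genes), with ZEB1, a repressor of epithelial genes, higher by 1.33, RBPMS by 0.80 and NCOA1 by 0.46, and RUNX2 lower at -0.79. In APC cells 2 rose and 2 fell (15.0% and 15.7% of all genes): RBPMS (2.37) and VGLL2 (0.28, below the median of all values) were higher, and RUNX2 (-1.58) and JUN (-0.55) were lower. RUNX2 was above control in siTAZ cells and below it in the other groups, with 12.15 ± 0.06, 10.96 ± 0.12 and 10.17 ± 0.12 in siTAZ, sibcat and APC cells, against 11.75 ± 0.16 in siGFP cells (SD, n = 4 each).

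**Figure D5:**
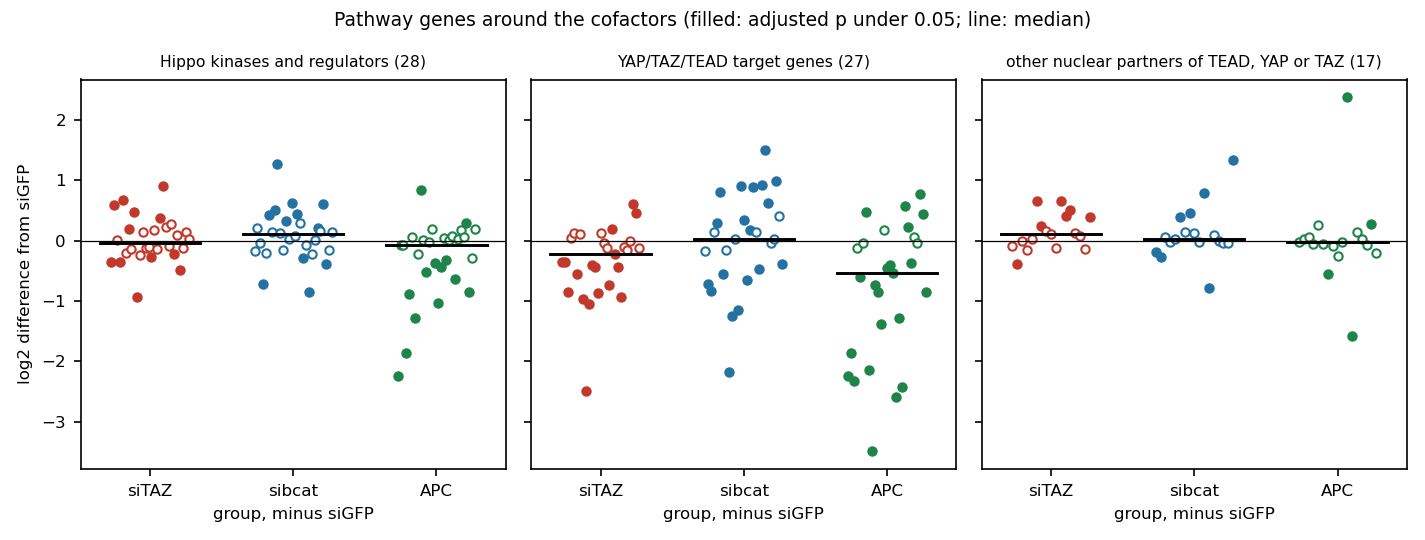
Log2 difference from siGFP of the genes of the 3 lists, by brightest probe set, in siTAZ, sibcat and APC cells; the target genes lie lowest in APC cells, where their median is -0.53.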

How the data were processed

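RNA of 16 SW480 samples was measured on Affymetrix U133 Plus 2.0 arrays. The deposited values are log2 levels per probe set that the authors made with RMA, per the submitters' processing notes, which give no version; a range of 1.8 to 14.56 shows the base of the log. RMA equalises the arrays, so a change in total RNA would not be seen. Array signals have no counts behind them, and precision is limited by having 4 arrays per group.

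The platform annotation paired 41097 probe sets with 1 gene, 1801 with several and 11777 with none. All 16 arrays entered 1 fit in limma 3.58.1 (R 4.3.3, lmFit and eBayes, no block). It had 6 comparisons, each adjusted over all 54675 probe sets by the Benjamini-Hochberg method. The fit was also run on simulated data with independent noise on each array. Those data held no replicate effect, so they cannot show how the fit without a block does on these arrays. Intervals are 95% intervals of that fit. No probe set was left out for low signal. Single values were also compared by exact permutation. Genes outside the 9 were taken by the brightest single-gene probe set.

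Named genes were the 9 members, CTNNB1 and APC, the 4 called genes of each of 3 lists with the largest difference in a comparison with siGFP, and the 3 genes most like each member whose brightest probe set was called at an absolute log2 difference of at least 1. The members and lists were chosen with earlier results of these data known. Replicates A and B went together across groups, as did C and D. After group means were removed, arrays of different groups within A and B or within C and D correlated at 0.07 to 0.40 (48 pairs). Of these, same-letter arrays correlated at 0.12 to 0.40 (24 pairs). Arrays from A or B correlated with those from C or D at -0.45 to -0.08. Removing group means makes some of these correlations negative when others are positive. Whether single letters pair beyond this was not tested. Alternatives were the replicate block, a block of A and B against C and D, replicates A and B or C and D alone and a trended prior. Others were median centring, an ACTB 3' minus 5' covariate, other probe set choices, 2 groups alone and leaving out each array. Figures were drawn with matplotlib 3.10.9.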

Additional observations from a re-analysis of the deposited data

Results flagged for a closer look

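Among the 92 sets of 4 arrays (23 probe sets in 4 groups), 7 held 1 array far from the other 3 by Dixon's test, where chance gives about 5%, or 4.6. YAP1 gave 4 of them. On 224894_at siTAZ A read 11.35, with the other siTAZ arrays at 11.12 to 11.15, and sibcat A read 9.84, with the others at 10.07 to 10.11. On 224895_at siTAZ A read 10.46, with the others at 10.22 to 10.23. On 213342_at siGFP D read 9.14, with the others at 8.97 to 8.98. Without the array in question, YAP1 differed from siGFP by -0.22 in siTAZ cells (adjusted p = 0.109) and -1.26 in sibcat cells on 224894_at, by -0.30 in siTAZ cells on 224895_at (adjusted p = 0.00841), and by -0.88 in sibcat cells and -0.63 in APC cells on 213342_at.

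TEAD2 238322_s_at read 5.23 in siTAZ B, with the other siTAZ arrays at 5.50 to 5.52, and without that array siTAZ cells differed from siGFP cells by -0.16 (adjusted p = 0.261). TEAD4 204281_at read 8.39 in siGFP C, with the other siGFP arrays at 8.50 to 8.52, and without it the difference in sibcat cells was -0.40 (adjusted p = 0.000194). VGLL1 215729_s_at read 2.44 in sibcat A, with the others at 2.5 to 2.51, all below the median of all values.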

How the results depend on the processing

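Each probe set's difference was recomputed in the 6 comparisons under the alternatives, giving 2448 values: 2323 kept their direction and their side of the threshold, 93 no longer passed, 32 newly passed and 0 reversed as a called value. Probe sets that stayed on their side of the threshold under all alternatives numbered 15 of 23 in siTAZ, 19 in sibcat and 16 in APC cells against siGFP. With the replicate letter as a block, 10, 10 and 10 probe sets passed in siTAZ, sibcat and APC cells against siGFP. The block gave 13 between siTAZ and sibcat cells, 10 between APC and sibcat cells and 16 between siTAZ and APC cells. The changed calls are given above. Replicates A and B alone, with fewer arrays, gave 5 in siTAZ cells, 5 in APC cells and 3 between APC and sibcat cells. With 1 probe set per gene, which tests 9 and not 23, the counts were 3 (siTAZ), 5 (sibcat) and 6 (APC) against siGFP, 5 between siTAZ and sibcat cells, 4 between APC and sibcat cells and 6 between siTAZ and APC cells. Without the probe sets that may read several transcripts (_x_at and _s_at), fewer were tested and 5 passed in siTAZ cells and 9 between siTAZ and APC cells; the brightest APC probe set has no value there. Leaving out 1 array at a time gave 6 to 10 probe sets in siTAZ cells, 8 to 10 in sibcat cells and 8 to 10 in APC cells. Over the Hippo list, replicates A and B alone called 6 genes in siTAZ cells and 7 in sibcat cells. No shares of all probe sets or genes passing under these alternatives are given here. The counts therefore describe the members and the list alone. The signal over background of VGLL1 and VGLL3 limits what can be said of them.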

Other observations

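WWTR1-AS1, a transcript antisense to WWTR1, has 2 probe sets of its own, both below the median of all values on every array. On 228629_s_at it read 4.09, 3.61, 4.05 and 3.89 in siTAZ cells and 4.35, 4.36, 4.44 and 4.44 in sibcat cells, against 4.16, 4.21, 4.21 and 4.23 in siGFP cells. The difference from control passed in siTAZ cells (log2 difference -0.29, SE 0.09, limma adjusted p = 0.0314) and not in sibcat cells (0.20, adjusted p = 0.148). On 1562765_at siTAZ cells differed by -0.17 (adjusted p = 0.302). CTNNB1, the target of the other siRNA, was higher in siTAZ cells than in siGFP cells on 223679_at, at 8.92 to 9.01 against 8.48 to 8.68 (0.40, adjusted p = 0.00126). It differed by 0.20 on its brightest probe set, 201533_at (adjusted p = 0.25), and by 0.07 on 1554411_at (adjusted p = 0.906).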
